A study of Mus musculus with 12 samples.

Results

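The 55 genes described here encode proteins that drive, carry out or check mitosis: the cyclins, CDK1 and CDC25 phosphatases, the mitotic kinases, the chromosomal passenger complex, the spindle checkpoint and anaphase machinery, mitotic kinesins, kinetochore and centromere proteins, spindle assembly factors, cytokinesis proteins, and the condensins with topoisomerase II alpha and Ki-67. They were chosen by name, with earlier results of these data known. Each was taken as the row of the count table whose Ensembl identifier carried that symbol. All 55 were found among the 37991 gene identifiers of the table, all 55 are annotated as protein-coding, and all 55 passed the filter on low counts that left 13538 genes for testing. The genes lie on 17 chromosomes.

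The RNA came from splenic B cells of 8-week-old mice, with 4 groups of 3 samples. Cre-only mice (CD23-iCre) carried the Cre recombinase transgene with an intact Runx1 gene, and Runx1 c-k/o mice (c-k/o for short) carried the same transgene with Runx1 alleles in which loxP sites flank exon 4. Cre is expressed from the CD23 promoter, which becomes active at the transitional B cell stage, so the controls also carried active Cre and only B cells past that stage lost the exon. The cells were purified by negative selection, which removes other cell types and CD43+ activated B cells, and were lysed at rest or after 3 h with anti-IgM, which crosslinks the B cell receptor, plus IL-4. No group was cultured for 3 h without anti-IgM + IL-4, so stimulation and culture cannot be told apart.

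Most genes of this class are transcribed in waves, with low mRNA in quiescent cells and a peak as a cycling cell passes from DNA replication to division. In quiescent cells the DREAM complex holds them down through a short promoter element, the cell cycle genes homology region (CHR), and in cycling cells B-MYB and FOXM1 act through the same element. Mature follicular B cells are quiescent until the B cell receptor is engaged, and mitosis follows only after a long first passage through the cycle.

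Total counts ranged from 14442251 to 23641552 per library, and levels are given as normalized CPM, counts divided by the library total in megareads, with totals scaled by TMM factors between 0.886 and 1.065. Of 9 B cell markers in the table, Ms4a1 and Cd79a had mean levels of 1255 and 2077 CPM in the resting Cre-only samples. The 2 libraries that stood apart from their groups were c-k/o replicate 2 at rest and c-k/o replicate 1 at 3 h: per-gene chi-square values against their group-mates were 30.6 to 84.7, whereas all other pairs within groups were between 3.31 and 13.95. Runx1 itself measured 83.6, 81.8 and 86.7 CPM in Cre-only B cells at rest. The c-k/o values at rest were 101.5, 95.7 and 103 CPM, and at 3 h Runx1 was higher in the c-k/o samples (log2 fold change 0.80 ± 0.14, SE, adjusted p = 0.00769 by edgeR, and the error after every log2 fold change below is its SE). These counts sum over all exons of the gene, so they are no check of the loss of exon 4.

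In the resting Cre-only samples the 55 mitotic genes together made up 0.110% to 0.118% of each library. The median member measured 8.16 CPM (n = 55 genes) beside a median of 18.9 CPM over all tested genes, and 43 of the 55 members were below that median. Per kilobase of exon, the highest mean levels in these samples were those of Cenpa, the centromeric histone H3 variant, at 47.5 CPM per kb, Cdc25b, a phosphatase that activates cyclin-dependent kinases, at 28.3, Smc4, an ATPase shared by both condensins, at 27.8, and Bub3, a checkpoint protein, at 21.1 CPM per kb. The lowest was Cdc25c at 0.432 CPM per kb. The order was different after 3 h, when Bub3 at 46.99, Smc4 at 18.7 and Smc2 at 11.9 CPM per kb were the highest in the Cre-only samples and Cenpa and Cdc25b were at 5.803 and 1.66 CPM per kb. The plot of 12 of the genes by sample shows the levels on which the comparisons rest.

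**Figure D1:**
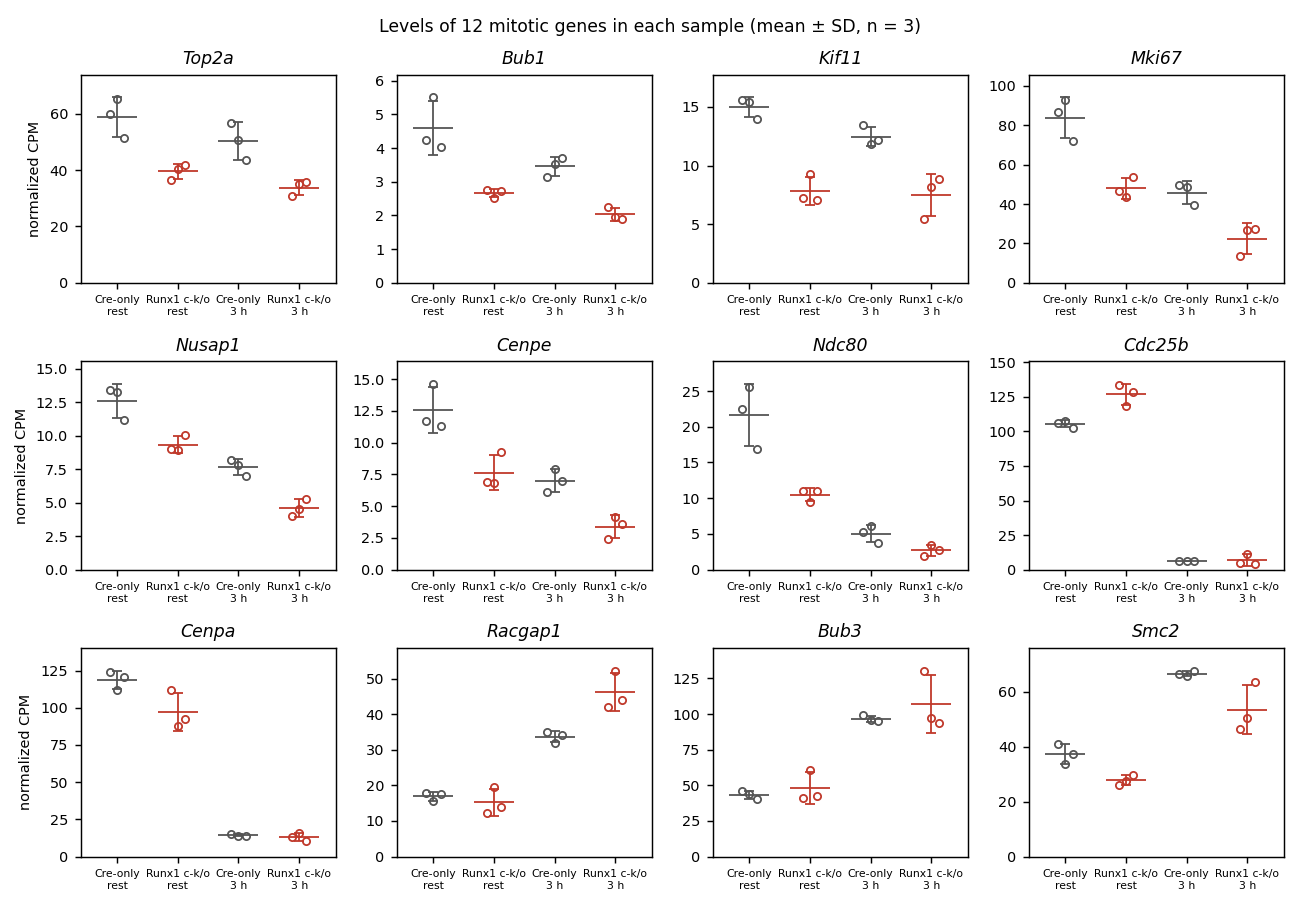
Normalized CPM of 12 mitotic genes in each of the 12 samples; open points are samples, and horizontal lines with error bars are the mean ± SD of 3 samples. For Top2a, Bub1 and Kif11 every c-k/o sample (red) lies below every Cre-only sample (gray) of the same time, and Cdc25b and Cenpa are far lower at 3 h than at rest in both genotypes.

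The promoters of these genes share sequence that the choice of genes did not use. RefSeq promoter windows of 300 bases (250 before to 50 after the start, GRCm38.p6) were at hand for 47 of the 55 genes, in 51 windows because some genes have more than 1 start. The CHR letters, TTTGAA or TTCGAA on either strand, were in 42 of the 51 windows (82.4%), beside 19.2% of all 32851 windows. Within 50 bases of the start they were in 74.5% of the member windows and 5.31% of all windows. The CCAAT box letters, CCAAT on either strand, were in 70.6% of member windows and 37.4% of all windows. The letters TGTGGT on either strand, which a RUNX protein can bind, were in 15.7% of member windows and 16.8% of all windows, and were held by Ect2, Kif2c, Plk1, Kif18b, Ncapg2, Ccnf and Kif11. A match to 1 of these motifs can share bases with a match to another, and a match is a description of the sequence, not a bound site.

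**Figure D2:**
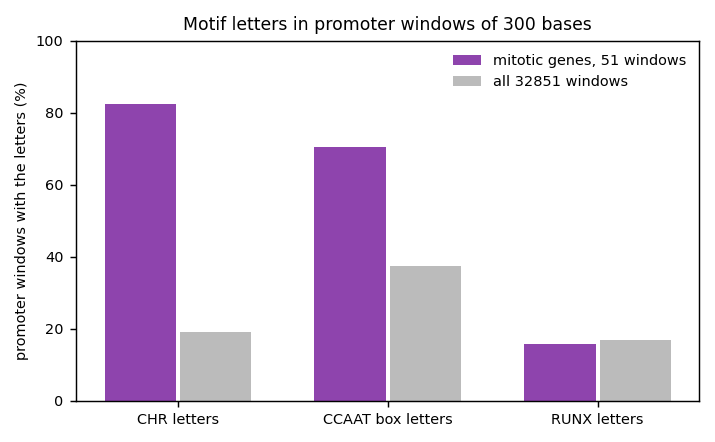
Share of promoter windows, in percent, that hold the CHR letters, the CCAAT box letters or the RUNX letters on either strand, for the 51 windows of the mitotic genes (purple) and all 32851 windows (gray). The member share is 82.4% against 19.2% for the CHR letters and 15.7% against 16.8% for the RUNX letters.

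The windows of 6 genes are printed because their genes carry the results below, with every match to the CHR letters, on either strand, in capitals: Bub1, Kif11 and Top2a were lower in c-k/o cells at both times, Cdc25b and Cenpa fell most on activation, and Racgap1 rose. The windows are, on GRCm38.p6, Bub1 at chr2:127831810-127832109, minus strand, Kif11 at chr19:37376132-37376431, plus strand, Top2a at chr11:99024140-99024439, minus strand, Cdc25b at chr2:131186698-131186997, plus strand, Cenpa at chr5:30666636-30666935, plus strand, and Racgap1 at chr15:99651607-99651906, minus strand, each written 5′ to 3′ on the strand of its gene. Top2a has 4 matches, the nearest starting at position -23 from the start, and the other 5 have 1 match each, between positions -19 and 17.
Bub1: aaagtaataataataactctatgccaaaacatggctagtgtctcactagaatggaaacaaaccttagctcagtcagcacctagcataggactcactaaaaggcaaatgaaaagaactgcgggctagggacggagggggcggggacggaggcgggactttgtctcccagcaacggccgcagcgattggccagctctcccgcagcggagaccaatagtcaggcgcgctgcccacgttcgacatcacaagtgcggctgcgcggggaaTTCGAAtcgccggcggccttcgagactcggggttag
Kif11: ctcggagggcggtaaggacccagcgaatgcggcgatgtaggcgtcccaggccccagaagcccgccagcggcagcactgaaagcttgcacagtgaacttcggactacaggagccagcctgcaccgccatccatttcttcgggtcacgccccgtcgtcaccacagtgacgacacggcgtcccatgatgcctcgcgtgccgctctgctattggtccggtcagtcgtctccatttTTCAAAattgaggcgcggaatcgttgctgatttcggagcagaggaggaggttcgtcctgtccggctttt
Top2a: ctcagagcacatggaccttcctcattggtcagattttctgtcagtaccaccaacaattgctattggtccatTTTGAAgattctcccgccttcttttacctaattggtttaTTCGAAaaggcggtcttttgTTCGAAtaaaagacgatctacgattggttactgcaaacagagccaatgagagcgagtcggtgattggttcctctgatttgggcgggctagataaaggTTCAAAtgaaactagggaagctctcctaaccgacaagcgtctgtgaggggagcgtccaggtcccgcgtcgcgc
Cdc25b: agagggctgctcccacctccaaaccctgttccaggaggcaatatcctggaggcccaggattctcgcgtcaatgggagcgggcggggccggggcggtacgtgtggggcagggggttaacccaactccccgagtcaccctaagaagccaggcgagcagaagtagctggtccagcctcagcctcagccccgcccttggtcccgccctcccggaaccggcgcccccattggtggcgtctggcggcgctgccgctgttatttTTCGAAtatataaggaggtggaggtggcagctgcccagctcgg
Cenpa: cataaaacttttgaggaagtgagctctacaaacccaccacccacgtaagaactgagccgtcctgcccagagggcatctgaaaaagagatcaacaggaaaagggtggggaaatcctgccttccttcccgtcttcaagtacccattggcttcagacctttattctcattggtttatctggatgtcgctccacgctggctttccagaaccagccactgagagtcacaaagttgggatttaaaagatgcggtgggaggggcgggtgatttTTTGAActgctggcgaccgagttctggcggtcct
Racgap1: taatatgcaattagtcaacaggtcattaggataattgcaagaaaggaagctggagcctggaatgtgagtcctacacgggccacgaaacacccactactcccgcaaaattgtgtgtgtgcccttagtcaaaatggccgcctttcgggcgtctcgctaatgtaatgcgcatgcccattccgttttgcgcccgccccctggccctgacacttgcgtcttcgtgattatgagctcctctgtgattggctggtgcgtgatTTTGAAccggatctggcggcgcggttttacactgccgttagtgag

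The first question was whether the Runx1 deletion went with other levels of mitotic genes in resting B cells. In the c-k/o cells 5 members were lower: the spindle motor Kif11, the kinetochore subunit Ndc80, the condensin subunit Ncapg, the checkpoint kinase Bub1 and Top2a, by 1.49-fold to 2.06-fold. No member was higher. The call was an adjusted p under 0.05, from edgeR's quasi-likelihood test after Benjamini-Hochberg adjustment over all 13538 genes. Of all genes 0.761% were called lower and 0.731% higher. With 1 library left out, 2 members were called lower without c-k/o replicate 2, the library that stood apart, 2 without Cre-only replicate 3, 1 without c-k/o replicate 1, and 0 without Cre-only replicate 1 or 2 or c-k/o replicate 3.

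The size of the difference was spread over the group. Of the 55 members 52 had a fitted log2 fold change below 0, beside 44.4% of all genes, and the median was -0.45 beside 0.03 over all genes. Under the other scalings the count was also 52, and it was between 52 and 53 with any 1 library left out. In 37 members every c-k/o sample was below every Cre-only sample, which held for 11.6% of all genes, and in 1 member, Cdc25b, every c-k/o sample was above, which held for 12% of all genes. At an unadjusted p under 0.05 there were 37 members lower, beside 5.02% of all genes, and 0 higher, beside 6.03%. DESeq2 called 10 lower and 0 higher, beside 197 lower and 181 higher of all 13538 genes. The summed level of the members was 1111, 1112 and 1033 CPM in the Cre-only samples and 872, 867 and 889 CPM in the c-k/o samples, and the groups did not overlap. In RNA from whole cell samples, fewer cells that express these genes and less of their RNA per cell cannot be told apart.

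After 3 h with anti-IgM + IL-4 there were 8 members lower in c-k/o cells: Kif11, Bub1 and Top2a again, with Nusap1, Cenpe, Mki67, Kif4 and Ccnb2, by 1.49-fold to 2.07-fold. Of all genes 1.3% were called lower and 1.47% higher. No member was called higher by edgeR, 1 member, Racgap1, was higher at an unadjusted p under 0.05 (7.38% of all genes), and DESeq2 called Racgap1 higher (adjusted p = 0.0324). Of all 13538 genes, DESeq2 called 287 lower and 422 higher at 3 h. Fitted log2 fold changes were below 0 in 50 of 55 members beside 48.9% of all genes, with a median of -0.56 beside 0.0073. In 39 members every c-k/o sample was below every Cre-only sample, beside 12.3% of all genes. The summed level was 796, 780 and 745 CPM in the Cre-only samples and 613, 658 and 656 CPM in the c-k/o samples, again without overlap. Without c-k/o replicate 1, the library that stood apart, 5 members were called lower and the median was -0.36. The calls were 0 without Cre-only replicate 2, 1 without Cre-only replicate 1, 5 without Cre-only replicate 3, and 4 and 11 without c-k/o replicates 2 and 3. A fit of these 6 samples alone called 0 of the 54 members it tested.

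**Figure D3:**
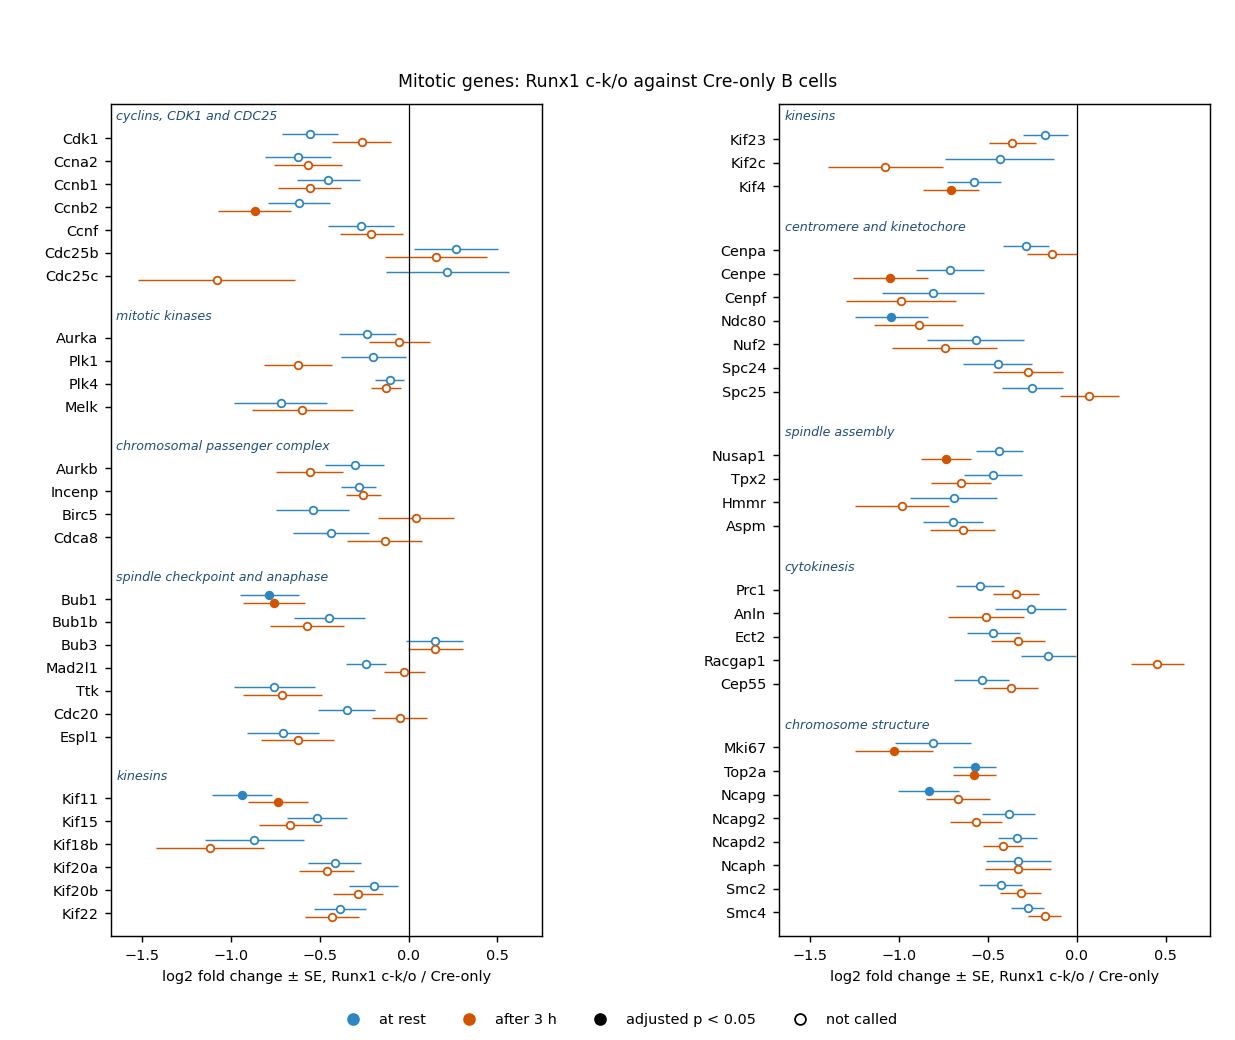
Fitted log2 fold change ± SE of c-k/o over Cre-only for each of the 55 genes, grouped by role, at rest (blue) and after 3 h (orange); filled points have an adjusted p under 0.05. All but 3 genes lie left of 0 at rest and all but 5 at 3 h, and the filled points (5 at rest, 8 at 3 h) are all to the left.

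The libraries were also compared singly. Relative to the mean of the Cre-only samples of the same time, the median member was at -0.58, -0.41 and -0.44 on the log2 scale in the resting c-k/o samples and at -0.65, -0.44 and -0.40 in those at 3 h. Of the 55 members 54, 48 and 53 were below that mean at rest, and 49, 49 and 54 at 3 h. In the Cre-only samples the same median lay between -0.15 and 0.07 at rest and between -0.08 and 0.05 at 3 h, with replicate 3 the lowest at both times.

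**Figure D4:**
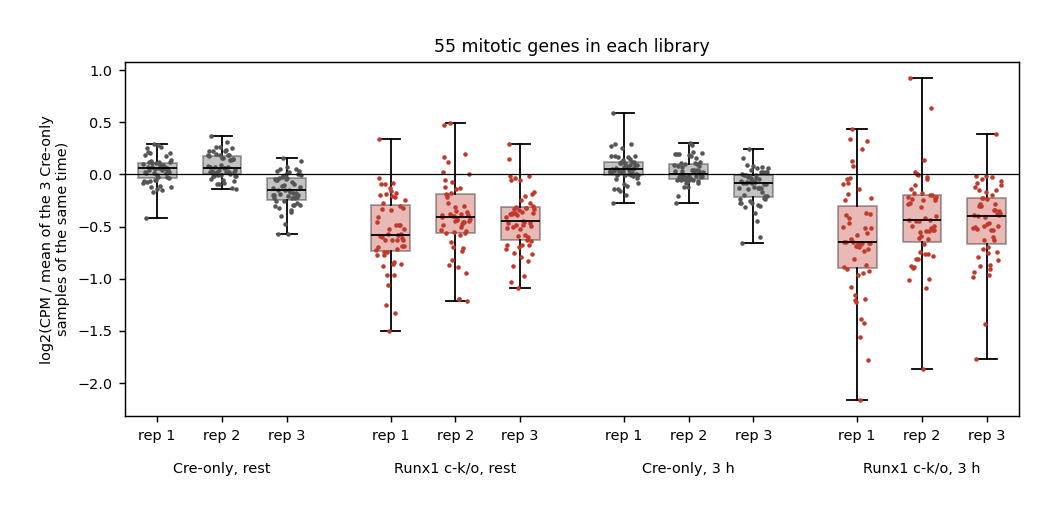
Log2 ratio of each of the 55 genes to its mean over the 3 Cre-only samples of the same time, by library; points are genes, boxes the quartiles with the median, and whiskers the full range. Each of the 6 c-k/o libraries has its median between -0.65 and -0.40, below the medians of all 6 Cre-only libraries.

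Among the cyclins, CDK1 and the CDC25 phosphatases, which together set the timing of mitotic entry, 0 of 7 members were called at rest and 1 was lower at 3 h. Ccnb2, a B-type cyclin that partners CDK1, measured 3.54, 2.42 and 2.803 CPM in the Cre-only samples at 3 h and 1.87, 1.44 and 1.53 CPM in c-k/o replicates 1, 2 and 3, the order in which sample values are given throughout. Its groups did not overlap (log2 fold change -0.87 ± 0.20, adjusted p = 0.042), and the call held only without c-k/o replicate 1 when libraries were left out in turn (adjusted p 0.0435 to 0.201). Cdk1, Ccna2, Ccnb1 and Ccnb2 had log2 fold changes of -0.56, -0.62, -0.45 and -0.62 at rest, all without overlap of the samples and with adjusted p between 0.145 and 0.342. Cdc25b stood on the other side, with 106, 107 and 102 CPM in the Cre-only samples at rest and 133, 118 and 129 CPM in the c-k/o samples. Every c-k/o sample was above the Cre-only samples at rest, but the difference did not pass the test (0.27 ± 0.24, adjusted p = 0.694), and at 3 h the groups overlapped, with a log2 fold change of 0.15 that turned to -0.45 without c-k/o replicate 2.

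None of the 4 mitotic kinases, Aurka, Plk1, Plk4 and Melk, was called at either time, although all 4 fitted values were below 0 at both. Plk4, which starts centriole duplication and had the highest mean of the 4, measured 28.6, 26.9 and 26.2 CPM in resting Cre-only and 25.6, 23.98 and 26.3 CPM in resting c-k/o samples. These values overlapped (-0.11 ± 0.084, adjusted p = 0.665). The chromosomal passenger complex, whose kinase Aurora B corrects faulty attachments of chromosomes to the spindle, also had 0 of 4 members called at either time. Its scaffold Incenp measured 31.5, 30.3 and 29.8 CPM in resting Cre-only samples and 25.3, 26.6 and 23.5 CPM in c-k/o samples, lower without overlap but short of the threshold (-0.28 ± 0.10, adjusted p = 0.272). At an unadjusted p under 0.05, edgeR had 1 of the kinases and 2 of the passenger proteins lower at each time, and DESeq2 called 0 of either group at either time.

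Of the 7 spindle checkpoint and anaphase genes, Bub1 was lower at both times. Bub1, a kinase that recruits checkpoint proteins to kinetochores, measured 4.24, 5.52 and 4.03 CPM in the Cre-only samples at rest and 2.75, 2.52 and 2.72 CPM in the c-k/o samples (-0.78 ± 0.17, adjusted p = 0.0413). At 3 h it measured 3.15, 3.53 and 3.69 CPM and 2.25, 1.97 and 1.89 CPM (-0.76 ± 0.18, adjusted p = 0.0406). The c-k/o values were the lowest at each time with no overlap, but the calls were lost with any 1 of the 6 libraries left out (adjusted p 0.0659 to 0.222 at rest and 0.0576 to 0.144 at 3 h), and DESeq2 called 0 of the 7 at 3 h. Ttk, the MPS1 checkpoint kinase, and Espl1, the separase that cleaves cohesin, had log2 fold changes of -0.76 and -0.71 at rest and -0.71 and -0.62 at 3 h, below the Cre-only samples without overlap but with adjusted p between 0.131 and 0.177. Bub3, the member of this group with the highest level, measured 45.7, 44.2 and 40.3 CPM in the Cre-only and 40.8, 60.95 and 42.3 CPM in the c-k/o samples at rest, where the groups overlapped and replicate 2, the library that stood apart, was the highest, and without it the log2 fold change turned from 0.15 to -0.06.

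The 9 kinesins, motors that build the spindle and move chromosomes along it, all had fitted values below 0 at both times, with medians of -0.43 at rest and -0.67 at 3 h. Kif11, the motor that pushes the spindle poles apart, measured 15.6, 15.4 and 14.01 CPM in the Cre-only samples at rest and 7.204, 9.24 and 7.03 CPM in the c-k/o samples (-0.94 ± 0.17, adjusted p = 0.0162). At 3 h the values were 13.4, 11.8 and 12.2 CPM and 5.41, 8.202 and 8.83 CPM (-0.74 ± 0.17, adjusted p = 0.0402). The groups were apart at both times. The resting call held only without c-k/o replicate 2 when single libraries were removed (adjusted p 0.015 to 0.094), and the call at 3 h was lost without each of the 3 Cre-only replicates or c-k/o replicate 2 (adjusted p 0.0271 to 0.165). Kif4, a chromosome-bound motor that also shapes the midzone of the spindle, was lower at 3 h, with 4.06, 3.66 and 3.57 CPM in Cre-only and 2.32, 2.36 and 2.24 CPM in c-k/o samples (-0.71 ± 0.16, adjusted p = 0.0307), a call lost with any 1 library left out (adjusted p 0.0573 to 0.143). The most abundant kinesin in CPM, Kif20b, overlapped between genotypes at 3 h, when its log2 fold change was -0.28 (adjusted p = 0.34). Kif18b and Kif2c, which shorten microtubules, had the most negative kinesin values at 3 h, -1.12 and -1.08, with no overlap, levels of at most 3.41 CPM and adjusted p of 0.0805 and 0.114.

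Of the 7 centromere and kinetochore genes, Ndc80 was lower at rest and Cenpe at 3 h. Ndc80, the subunit of the outer kinetochore that grips microtubules, measured 22.6, 25.5 and 16.9 CPM in resting Cre-only and 11.1, 9.44 and 11.02 CPM in resting c-k/o samples (-1.04 ± 0.21, adjusted p = 0.027). Every c-k/o sample was below every Cre-only sample, by a fold of 2.06 in the fit, and the call held only without Cre-only replicate 3 among the fits that left out 1 library (adjusted p 0.0315 to 0.155). Its partner Nuf2 had a log2 fold change of -0.57 with overlap at rest and -0.74 without overlap at 3 h (adjusted p = 0.481 and 0.241). Cenpe, a kinetochore motor that brings chromosomes to the spindle equator, measured 6.13, 7.904 and 7.01 CPM in Cre-only and 2.38, 4.13 and 3.59 CPM in c-k/o samples at 3 h (-1.05 ± 0.21, adjusted p = 0.0201). These groups did not overlap either, and the call was lost without Cre-only replicate 2 or 3 (adjusted p 0.0216 to 0.0904). Cenpa, by far the most abundant of the 7 at rest, measured 124, 112 and 121 CPM in the Cre-only and 112, 88.03 and 92.3 CPM in the c-k/o samples, which overlapped by a narrow margin (-0.29 ± 0.13, adjusted p = 0.442).

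The 4 spindle assembly genes, Nusap1, Tpx2, Hmmr and Aspm, were below the Cre-only samples without overlap at both times, and 1 of them passed the test. Nusap1, which bundles microtubules near chromosomes, measured 8.2, 7.84 and 7.01 CPM in Cre-only and 3.99, 4.53 and 5.3 CPM in c-k/o samples at 3 h (-0.74 ± 0.14, adjusted p = 0.0148). The call was lost without Cre-only replicate 1 or 2 or c-k/o replicate 2 (adjusted p 0.0132 to 0.0798). At rest its values were 13.4, 13.3 and 11.2 CPM and 9.02, 8.92 and 10.1 CPM (-0.44 ± 0.13, adjusted p = 0.175). Aspm, a spindle pole protein, came nearest to the threshold at rest (-0.70 ± 0.17, adjusted p = 0.0782), and Tpx2, the activator of Aurora A, at 3 h (-0.65 ± 0.17, adjusted p = 0.0677). DESeq2 called all 4 lower at 3 h.

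Among the 5 cytokinesis genes 0 were called by edgeR at either time, and the unadjusted p was under 0.05 for 3 at rest, all lower, and for 5 at 3 h, of which 1 was higher. DESeq2 called 1 lower at rest and 1 higher at 3 h. Prc1, which bundles the spindle midzone, had a log2 fold change of -0.55 ± 0.13, adjusted p = 0.0807 at rest without overlap. Racgap1, a subunit of centralspindlin, went the other way at 3 h: 34.9, 31.9 and 34.3 CPM in Cre-only and 42.2, 52.3 and 44.1 CPM in c-k/o samples. It was the only member whose c-k/o samples were all above the Cre-only samples at 3 h (0.45 ± 0.15, adjusted p = 0.151), where 9.5% of all genes had that order. At rest Racgap1 measured 17.8, 15.5 and 17.6 CPM and 12.1, 19.5 and 14.1 CPM, with overlap and replicate 2 of the c-k/o samples the highest.

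The 8 chromosome structure genes are Mki67, Top2a and 6 subunits of the condensins, which compact mitotic chromosomes, and all 8 had fitted values below 0 at both times. Top2a, the topoisomerase that untangles sister chromatids, measured 59.9, 65.4 and 51.3 CPM in resting Cre-only samples and 36.5, 40.5 and 41.7 CPM in resting c-k/o samples (-0.57 ± 0.12, adjusted p = 0.0383). At 3 h it measured 56.8, 50.6 and 43.6 CPM and 30.7, 34.9 and 35.7 CPM (-0.58 ± 0.12, adjusted p = 0.0244). The groups were apart at both times. The resting call held only without Cre-only replicate 3 (adjusted p 0.0425 to 0.216) and that at 3 h only without Cre-only replicate 3 or c-k/o replicate 3 (adjusted p 0.0227 to 0.124).

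Mki67, which encodes the Ki-67 coat protein of mitotic chromosomes used as a marker of cycling cells, measured 86.7, 92.8 and 72.3 CPM in resting Cre-only and 46.4, 43.6 and 53.95 CPM in resting c-k/o samples, a difference without overlap that missed the threshold (-0.81 ± 0.21, adjusted p = 0.117). At 3 h it measured 49.8, 48.5 and 39.3 CPM and 13.4, 26.7 and 27.3 CPM (-1.03 ± 0.22, adjusted p = 0.0264), and c-k/o replicate 1, the library that stood apart, was the lowest. Mki67 was still called without that library, and the call was lost without Cre-only replicate 1 or 2 (adjusted p 0.012 to 0.115). Ncapg, a condensin I subunit, was lower at rest, with 5.83, 6.09 and 6.01 CPM against 3.92, 2.58 and 3.52 CPM and no overlap (-0.83 ± 0.17, adjusted p = 0.0344), a call that held only without c-k/o replicate 1 (adjusted p 0.044 to 0.149). Smc4, the most abundant member in CPM in the resting Cre-only samples (Cdc25b was higher in the resting c-k/o samples), measured 129, 138 and 153 CPM in Cre-only and 118, 104 and 125 CPM in c-k/o samples, apart but with a small fold of 1.21 (-0.28 ± 0.092, adjusted p = 0.239). Smc2 measured 41.01, 33.8 and 37.2 CPM and 26.1, 27.5 and 29.7 CPM at rest, also without overlap (-0.43 ± 0.12, adjusted p = 0.138).

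Bub1, Kif11 and Top2a were called at both times, which is 60.0% of the resting list of 5 and 37.5% of the list of 8 at 3 h, beside 0.355% of all genes called lower at both. There were 32 members below the Cre-only samples without overlap at both times, beside 4.2% of all genes. The labels do not say whether samples at rest and at 3 h share mice, so these lists may not be independent. On the mm9 assembly of the mouse genome, the build of the deposited counts, Bub1 lies at chr2:127626858-127657601, minus strand, Kif11 at chr19:37450893-37496349, plus strand, and Top2a at chr11:98854257-98885503, minus strand, and reads were counted over exons. An exon of Top2a overlaps a small RNA gene, SNORA32, on the same strand. The other of the 2 members with such an overlap is Ccnf (AC117577.2). On the other strand 9 members have exons that overlap another gene, among them Nusap1 (Oip5), Kif4 (Pdzd11) and Ncapg (Lcorl). Whether the genotype difference itself changed between rest and 3 h was tested as an interaction in edgeR, and 0 of the 55 members passed, beside 0.0665% of all genes higher and 0.0148% lower. With an unadjusted threshold of 0.05, beside 2.59% of all genes higher and 2.48% lower, 1 member was higher, Racgap1 (log2 difference 0.61 ± 0.21, adjusted p = 0.725). Cdc25c was lower (-1.30 ± 0.56, adjusted p = 0.941), and DESeq2 called 0. Cdc25c had only 6, 5 and 3 counts in the c-k/o samples at 3 h. The next smallest p was that of Birc5, the survivin subunit of the passenger complex (0.58 ± 0.30, adjusted p = 0.999). Genes that passed at only 1 time are therefore not shown to differ between the times.

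Other genes of the cell cycle were followed through lists of names. The all-gene counts given here also apply to the factor, replication and cell type lists below. By edgeR, 0.761% of all genes were called lower and 0.731% higher at rest, and 1.3% and 1.47% at 3 h. At an unadjusted p under 0.05, 5.02% were lower and 6.03% higher at rest, and 8.83% and 7.38% at 3 h. DESeq2 called 197 of 13538 genes lower and 181 higher at rest, and 287 and 422 at 3 h. With 1 RUVs factor, a term for unwanted variation, edgeR called 269 lower and 255 higher at rest and 581 and 455 at 3 h. DESeq2 with this factor called 311 lower and 300 higher at rest, and 527 and 703 at 3 h. Fitted values were below 0 in 44.4% of all genes at rest and 48.9% at 3 h. Of 60 further mitotic genes, 1 was lower at rest and 4 were lower at 3 h, and 0 were higher at either time by edgeR. At an unadjusted p under 0.05 there were 15 lower and 3 higher at rest and 18 lower and 2 higher at 3 h. DESeq2 called 3 lower and 0 higher at rest and 5 lower and 2 higher at 3 h. With 1 RUVs factor, edgeR called 5 lower and 3 higher at rest and DESeq2 4 and 3, and at 3 h each called 7 lower and 3 higher. Fitted values were below 0 in 47 of the 60 at rest and 40 at 3 h. Spag5, the astrin protein of the spindle, was lower at rest (mean 8.59 ± 0.685 CPM in Cre-only and 5.26 ± 0.280 CPM in c-k/o, SD, n = 3, log2 fold change -0.71 ± 0.145, adjusted p = 0.0325). At 3 h the lower genes were Fam83d, Dsn1, Cenpk and Knl1, and Fam83d, which carries a kinesin to the spindle, had the smallest adjusted p (-1.58 ± 0.245, adjusted p = 0.00384). The median log2 fold change of this list was -0.20 at rest and -0.21 at 3 h. The 16 genes of the anaphase-promoting complex had 0 called by edgeR, with medians of 0.04 and 0.01, 0 and 2 members at an unadjusted p under 0.05, and 0 called by DESeq2. The 14 cohesin genes had 0 called by edgeR or DESeq2, with 3 and 5 lower at an unadjusted p under 0.05 and medians of -0.10 and -0.29. With 1 RUVs factor, 1 cohesin gene was called lower at rest in each tool. In the DESeq2 fit 1 gene of the anaphase-promoting complex was called higher at 3 h.

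For the 20 genes of the DREAM complex and the E2F family, which control transcription of the mitotic genes, edgeR called 0 at either time, 5 and 3 were lower at an unadjusted p under 0.05, and DESeq2 called 2 lower at rest and 0 at 3 h. With 1 RUVs factor each tool called 2 lower at rest, and at 3 h edgeR called 2 and DESeq2 1 lower, with 0 higher. Foxm1 measured 16.3 ± 1.82 CPM (SD, n = 3) in resting Cre-only samples and 11.2 ± 0.664 CPM in c-k/o samples (log2 fold change -0.54 ± 0.13, adjusted p = 0.0682), and Mybl2, which encodes B-MYB, 9.16 ± 0.465 CPM and 6.56 ± 0.804 CPM (-0.48 ± 0.12, adjusted p = 0.0999). Of 41 DNA replication genes edgeR called 0, with 9 and 8 lower at an unadjusted p under 0.05, and DESeq2 called 2 lower at rest and 1 at 3 h. With 1 RUVs factor, edgeR and DESeq2 called 6 and 7 lower at rest and 4 and 3 at 3 h, with 0 higher. Fitted values were below 0 in 33 of the 41 at rest and 27 at 3 h. At rest 11 were lower without overlap and 1 was higher, beside 11.6% and 12% of all genes. The smallest p values among the replication genes at rest were those of Mcm10 (-0.71 ± 0.16, adjusted p = 0.0552) and Cdc6 (-0.93 ± 0.22, adjusted p = 0.0599), which load and start the replicative helicase. The median of the replication list was -0.14 at rest and -0.10 at 3 h.

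Markers of germinal center B cells, which divide rapidly, were followed as well. All 7 genes of that list had fitted values below 0 at rest, with a median log2 fold change of -1.22, and 6 of 7 at 3 h, with a median of -1.15. Rgs13 counts were 96, 90 and 95 in Cre-only libraries at rest and 33, 48 and 25 in the c-k/o libraries, and the gene was called lower at both times (adjusted p = 0.0374 and 0.0257). Mybl1 was called lower at 3 h (adjusted p = 0.0257). Mean S1pr2 at rest was 3.16 CPM (SD 1.39) for Cre-only and 1.33 CPM (SD 0.575) for c-k/o samples, which overlapped. Gcsam averaged 1.61 CPM (SD 1.31) and 0.397 CPM (SD 0.0727), without overlap. Resting Cre-only replicate 2 was the highest for both genes. It held 54 Gcsam counts beside 11 and 20 for replicates 1 and 3, and 78 S1pr2 counts beside 35 and 54. Neither gene was called at rest by edgeR. None of the 7 was at 0 in every library. The summed level of the list was 133 to 154 CPM in resting Cre-only and 108.5 to 124 CPM in resting c-k/o samples, most of it Bcl6, and 50.4 to 60.3 and 42.6 to 47.4 CPM at 3 h. The plasma cell marker Sdc1 was also lower at rest (mean 17.9 against 7.04 CPM, adjusted p = 0.00157), the 1 gene called of 5 tested in its list. The list had a median log2 fold change of -0.03 and sums of 1565 to 1674 CPM in Cre-only and 1541 to 1679 CPM in c-k/o samples, and Xbp1 and Jchain had values above 0 (0.48 and 0.45, adjusted p = 0.273 and 0.71). The sums of the erythroid, myeloid, T cell, natural killer cell and immature B cell lists were 235 to 477, 196 to 238, 36.4 to 41.6, 8.77 to 12.5 and 116 to 146 CPM in the resting Cre-only samples. In the resting c-k/o samples they were 512 to 639.7, 174 to 332, 30.7 to 43.6, 8.60 to 9.55 and 98.1 to 113 CPM. At rest edgeR called 0 of the 26 tested genes, and DESeq2 called 1, an erythroid gene, lower. Single genes made up much of several sums, so the sums are no direct measure of cell content. In resting Cre-only samples Lck averaged 34.9 CPM of the T cell sum, with Cd3e, Cd3d and Cd3g at 0.115, 0.421 and 0.527 CPM. Csf1r averaged 185 CPM of the myeloid, Tfrc 195 CPM of the erythroid and Irf4 1384 CPM of the plasma cell sum. The 9 B cell markers summed to 16210 to 16970 CPM in resting Cre-only and 17540 to 19300 CPM in resting c-k/o samples. At rest 4 of the 9 were higher without overlap and 1 was lower, beside 12% and 11.6% of all genes. Of the 9, edgeR called 0 at rest, and DESeq2 called 1 higher and 0 lower. The part of the listed cell types in the lower mitotic gene levels was not tested.

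The second question was how mitotic genes changed over 3 h of activation. Of the 55 members, 19 fell, 4 rose and 32 were not called in Cre-only cells. The c-k/o cells had 23 that fell, 6 that rose and 26 not called. Activation moved most of the transcriptome. In Cre-only cells 36.4% of all genes were called lower and 38.6% higher, and in c-k/o cells 36.6% and 37.7%. In this fit the share of members that fell was below that of all genes in Cre-only cells and above it in c-k/o cells. The share that rose was far below that of all genes in both genotypes. Whether these shares differ from those of all genes was not tested. The median log2 fold change was -0.37 in Cre-only and -0.34 in c-k/o cells, beside 0.03 and 0.0046 over all genes. Scaling by total counts alone moved the median of all genes to -0.096 and -0.11, and the members that fell were then 28 and 30 and those that rose 3 and 4. With 1 RUVs factor, which models unwanted variation, 12 fell in Cre-only cells in edgeR and in DESeq2, and 12 and 11 in c-k/o cells. Both fits lost the calls of Ccnf, Cenpe, Mki67, Kif15 and Aspm in both genotypes, of Bub1, Kif23, Nusap1 and Ncapg in Cre-only cells, and of Cdc20, Aurka, Plk1, Bub1b, Kif22, Cenpf, Tpx2, Hmmr and Anln in c-k/o cells, and the DESeq2 fit also lost Prc1 there. The 2 activation comparisons and the 2 genotype comparisons use the same 12 samples, so their values are given side by side and no likeness between them was tested.

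In both genotypes 15 of the 55 members fell and 4 rose, beside 33.6% and 35.4% of all genes. Both shares were below those of all genes. The 15 are 78.9% of the 19 and 65.2% of the 23 that fell in each. Cdc25b fell most, from 106, 107 and 102 CPM to 6.39, 5.95 and 6.18 CPM in Cre-only samples (-4.09 ± 0.28, adjusted p = 8.79e-08) and from 133, 118 and 129 CPM to 4.699, 11.7 and 4.36 CPM in c-k/o samples (-4.20 ± 0.28, adjusted p = 9.82e-08). No resting sample came near an activated sample, and the fold was 17.03 and 18.4. Exons of Cdc25b overlap Spef1 on the other strand, and the strand setting of the counting is not given in the sources used here. Cenpa fell from 124, 112 and 121 CPM to 15.3, 14.1 and 14.1 CPM (-3.03 ± 0.14, adjusted p = 1.35e-08) and from 112, 88.03 and 92.3 CPM to 13.2, 15.9 and 10.5 CPM (-2.88 ± 0.14, adjusted p = 2.47e-08), so that the 2 members with the highest resting levels per kilobase were also the 2 that fell most.

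Of the 7 centromere and kinetochore genes 3 fell in Cre-only and 4 in c-k/o cells. Ndc80 fell from 22.6, 25.5 and 16.9 CPM to 5.31, 6.14 and 3.69 CPM in Cre-only samples (-2.10 ± 0.22, adjusted p = 2.52e-06) and from 11.1, 9.44 and 11.02 CPM to 1.93, 3.48 and 2.77 CPM in c-k/o samples (-1.95 ± 0.24, adjusted p = 1.18e-05). The other subunits of the same complex, Nuf2, Spc24 and Spc25, did not pass the test in either genotype, with log2 fold changes of -0.42, -0.34 and 0.03 in Cre-only cells. In the passenger complex the kinase Aurkb fell from 10.2, 9.39 and 8.43 CPM to 5.05, 3.98 and 3.31 CPM in Cre-only samples (-1.17 ± 0.17, adjusted p = 5.06e-05), and its log2 fold change in c-k/o samples was -1.42 ± 0.18, adjusted p = 1.72e-05. Incenp, its scaffold, measured 30.2, 27.96 and 28.9 CPM in the activated Cre-only samples, which overlapped with its resting values.

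Among the chromosome structure genes the condensin subunits went different ways. Ncapd2, a condensin I subunit, fell from 68.8, 62.6 and 58.1 CPM to 35.1, 33.05 and 30.96 CPM in Cre-only samples (-0.93 ± 0.11, adjusted p = 7.82e-06), and Smc4 fell from 129, 138 and 153 CPM to 88.7, 95.5 and 97.97 CPM (-0.57 ± 0.093, adjusted p = 0.000108). Smc2, which pairs with Smc4 in both condensins, rose from 41.01, 33.8 and 37.2 CPM to 66.3, 65.8 and 67.7 CPM (0.83 ± 0.12, adjusted p = 3.59e-05), and in c-k/o samples from 26.1, 27.5 and 29.7 CPM to 46.5, 50.4 and 63.6 CPM (0.95 ± 0.12, adjusted p = 1.42e-05). Mki67 fell in both genotypes, by log2 values of -0.87 and -1.09, and Top2a did not pass the test in either, with -0.22 and -0.23 (adjusted p = 0.107 and 0.11). In Cre-only cells 1 of the 8 chromosome structure genes was called higher in the main fit, and 2 with 1 RUVs factor in edgeR.

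The other genes that rose in both genotypes were Bub3, Racgap1 and Ccnf. Bub3 rose from 45.7, 44.2 and 40.3 CPM to 99.3, 95.6 and 94.8 CPM in Cre-only samples (1.15 ± 0.16, adjusted p = 2.88e-05) and from 40.8, 60.95 and 42.3 CPM to 130.5, 96.9 and 93.8 CPM in c-k/o samples (1.16 ± 0.16, adjusted p = 2.92e-05), where replicate 1 was the highest at 3 h. Racgap1 rose 1.98-fold in Cre-only (0.99 ± 0.15, adjusted p = 7.41e-05) and 3.04-fold in c-k/o samples (1.60 ± 0.15, adjusted p = 1.46e-06), with the values given above and no overlap between the times. Ccnf, the F-box cyclin F, rose from 6.36, 5.87 and 4.52 CPM to 7.81, 8.75 and 6.31 CPM with overlap in Cre-only samples (0.44 ± 0.18, adjusted p = 0.038), a call lost without resting replicate 2 or 3 or activated replicate 1 or 2 (adjusted p 0.0184 to 0.144). In c-k/o samples its log2 fold change was 0.50 ± 0.18, adjusted p = 0.0267, a call lost without resting replicate 1 or 3 or activated replicate 3. Cdc20, the activator of the anaphase-promoting complex, and Prc1 were called higher in c-k/o cells, with 0.53 ± 0.16, adjusted p = 0.00993 and 0.40 ± 0.14, adjusted p = 0.0185 (the Prc1 call was lost without resting replicate 1 or 3 or activated replicate 2), and had 0.23 and 0.19 in Cre-only cells, a difference that did not pass the interaction test. An exon of Cdc20 overlaps Elovl1 on the other strand.

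**Figure D5:**
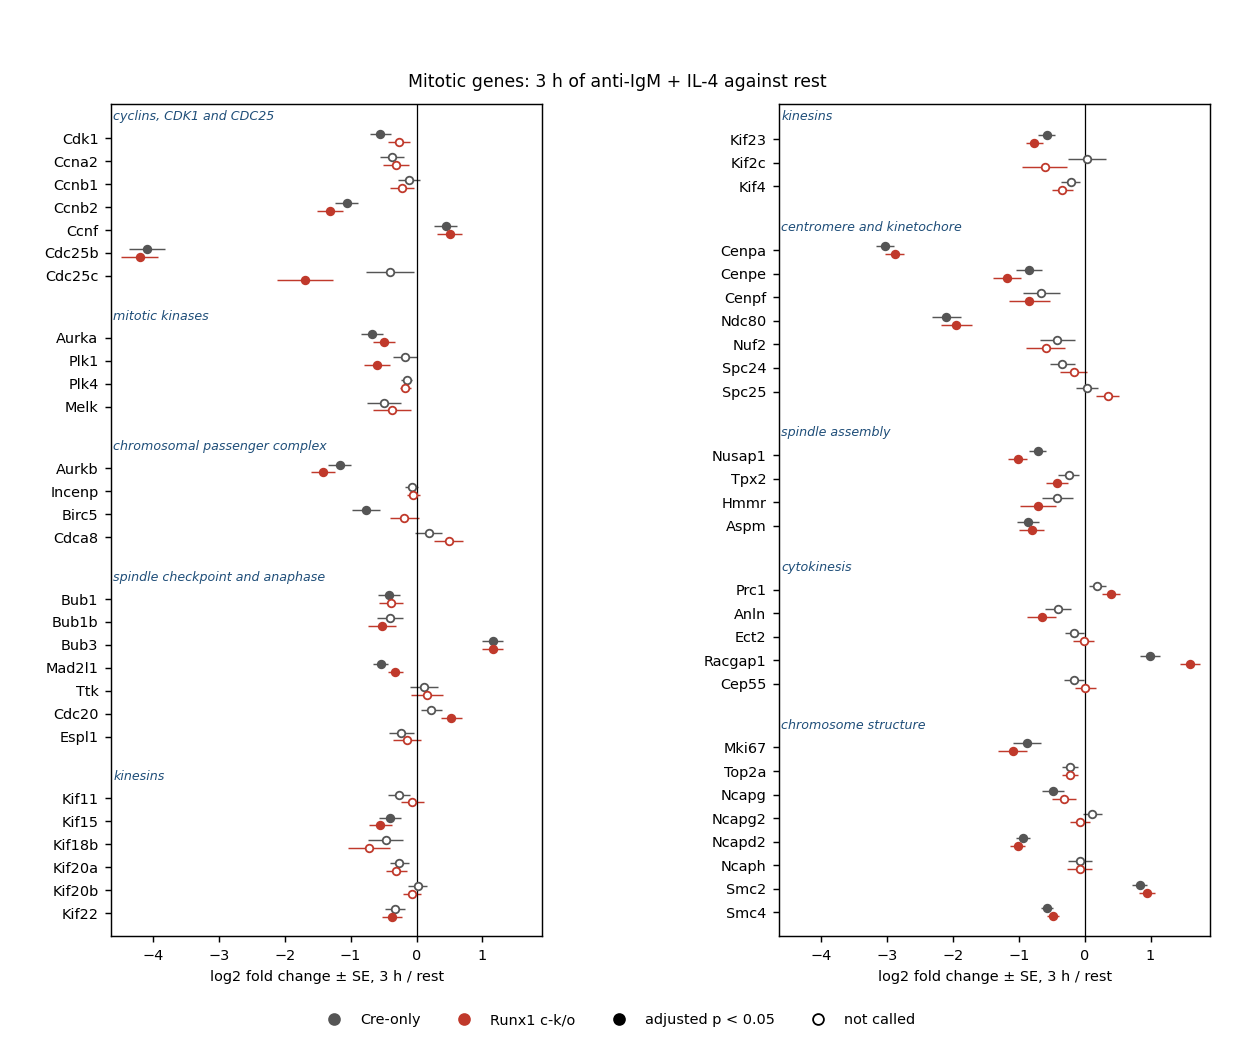
Fitted log2 fold change ± SE at 3 h of anti-IgM + IL-4 over rest for each of the 55 genes, grouped by role, in Cre-only (gray) and c-k/o (red) cells; filled points have an adjusted p under 0.05. Cdc25b, Cenpa and Ndc80 lie far to the left in both genotypes (down to -4.20), and Bub3, Racgap1, Smc2 and Ccnf are filled to the right in both.

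Calls were also made in the other role groups. Of the 9 kinesins Kif15 and Kif23 fell in both genotypes and Kif22 in c-k/o cells (the Kif15 call in Cre-only cells held only without resting replicate 3, and the Kif22 call was lost without resting replicate 1 or 2 or activated replicate 1 or 3). The RUVs fits called 0 of the 9 lower in Cre-only cells and 1, Kif23, in c-k/o cells. The RUVs fit in edgeR also called 1 of the 9 higher in each genotype, and that in DESeq2 called 0 higher. Of the 4 spindle assembly genes Nusap1 and Aspm fell in both genotypes, by -0.71 and -0.86 in Cre-only and -1.02 and -0.80 in c-k/o cells. Tpx2 and Hmmr fell in c-k/o cells, calls that held only without resting replicate 1 and only without activated replicate 3, respectively. The RUVs fits called 0 of these 4 lower in Cre-only cells and 1, Nusap1, in c-k/o cells. Of the cyclin group Ccnb2 fell in both, from 6.26, 6.95 and 5.27 CPM to 3.54, 2.42 and 2.803 CPM in the Cre-only samples (-1.06 ± 0.18, adjusted p = 0.000149), whereas Ccnb1, the other B-type cyclin, had -0.11 and -0.22 and did not pass. Of the mitotic kinases Aurka fell in both genotypes, by -0.67 and -0.49, and the c-k/o call was lost without resting or activated replicate 2.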

How the data were processed

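RNA from 12 samples (4 groups of 3) was measured by paired-end sequencing of poly(A) libraries. The authors deposited raw counts per Ensembl gene; per the labels and the study's methods, reads were processed with CASAVA 1.8.4, aligned to mm9 (NCBIM37) with TopHat2 2.0.11 and counted with featureCounts. The strand setting and the treatment of reads with several matches are not given in the sources used here, so overlapping genes and close paralogs may share reads. Deposited counts were tested with edgeR 4.0.16 in R 4.3.3: TMM scaling, filterByExpr with a minimum count of 10, 4 group terms over all 12 samples, robust quasi-likelihood tests, and Benjamini-Hochberg adjustment over 13538 genes with a threshold of 0.05. The standard error is the log2 fold change divided by the square root of F. Alternatives used DESeq2 1.42.0 and 1 RUVs factor. The study used DESeq2 with factors from RUV-seq, and the RUVs variant and the number of factors were chosen here. Scripts were tested on simulated data.

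The members and gene lists were chosen with earlier results of these data known. Values were given in full for the highest-expressed member of each role, the called members with the smallest adjusted p in each comparison and the smallest interaction p values. Other members were named for their role after their values were seen. Symbols were found for 37205 of 37991 identifiers, and locations are from the mm9 annotation. Replicate numbers paired the Cre-only samples across time (correlations of deviations from group means for same-numbered samples 0.276, 0.176 and 0.144, all over 0.1). The study calls them biological replicates, and the labels do not say which samples came from separate mice, so p-values measure the spread between these samples. With 3 against 3 samples an exact permutation test could not go below 0.10. Total counts per library limit precision most for genes with few counts.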

Additional observations from a re-analysis of the deposited data

How the results depend on the processing

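The median log2 fold change of the 55 members kept its sign, between -0.54 and -0.39 at rest and between -0.60 and -0.36 at 3 h over all alternatives, and between -0.51 and -0.16 and between -0.46 and -0.27 for activation of Cre-only and of c-k/o cells. The number of calls moved, and the cause was not tested. Of the resting genotype comparison, 5 members lower became 3 without the low-count filter, 10 with DESeq2, 12 and 13 with 1 RUVs factor in edgeR and DESeq2, 2 with the replicate block, and 0 to 2 with 1 library left out (0 without Cre-only replicate 1 or 2 or c-k/o replicate 3). At 3 h, 8 lower became 5, 16, 18, 16 and 2 in the same order, 0 in a fit of the groups compared alone, and 0 to 11 with 1 library left out (0 without Cre-only replicate 2, 1 without Cre-only replicate 1), and 0 higher became 1 (Racgap1) in both DESeq2 fits. For activation in Cre-only cells, 19 lower became 35 with at least 10 counts in every sample, 12 in both RUVs fits, 32 in the groups compared alone, and 16 to 22 with 1 library left out. In c-k/o cells, 23 lower became 12 and 11 in the RUVs fits in edgeR and DESeq2 and 17 to 21 with 1 library left out, and 6 higher became 3 with RUVs in DESeq2, 3 in the groups compared alone and 4 to 7 with 1 library left out. The interaction stayed at 0 members in every alternative. Among the members whose single values were recomputed under each alternative, those that changed sign were Bub3 at rest without c-k/o replicate 2 (-0.064, and up to 0.25 without another library), Cdc25b at 3 h without c-k/o replicate 2 (-0.45, up to 0.40), Cenpa at 3 h without c-k/o replicate 3 (0.0023, down to -0.29), and Cenpf on activation of c-k/o cells with RUVs in edgeR (0.49) and DESeq2 (0.44). Over all 55 members, called or not, those below 0 were 52 to 53 at rest (52 as reported), 47 to 52 at 3 h (50), 39 to 48 on activation of Cre-only cells (43) and 37 to 46 of c-k/o cells (45). Over all genes, 202 calls at rest became 378, 524 and 611 with DESeq2, RUVs in edgeR and RUVs in DESeq2 (81 to 140 with 1 library left out), 375 at 3 h became 709, 1036 and 1230, and 158 in the groups compared alone (180 to 617), and 11 in the interaction became 83, 142 and 253, and 4 with the replicate block within genotype (4 to 31). The block within genotype left 4 higher and 19 lower in Cre-only cells. Replicate numbers did not pair the c-k/o samples across time (correlations -0.254, -0.264 and 0.254) or the genotypes (-0.066 to 0.068). The highest c-k/o correlations joined other numbers: resting replicate 2 with activated replicate 1 (0.477), 3 with 2 (0.309) and 1 with 3 (0.269). The first pair holds the libraries that stood apart. The c-k/o results at rest and at 3 h may therefore not be independent. Depth limits the members with few counts, such as Cdc25c.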
